A study of Mus musculus with 20 samples.

Results

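The genes Meis1, Meis2, Meis3, Pbx2, Pbx3 and Pknox1 encode homeobox partner proteins of HOX factors. They were followed through 10 lists of accessible chromatin from mouse ER-Hoxa9-Lys-GFP cells. The members were chosen by name: a peak belonged to a member when the deposited annotation gave that gene as the one with the nearest transcription start site (TSS). These are 6 of the 19738 genes with a peak in any list. Together they held 190 peaks over the 10 lists, which fell into 33 regions once overlapping peaks of different lists were joined, out of 88351 such regions in all.

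The cells are of C57BL/6 origin, were grown in vitro in medium with 1% SCF conditioned medium, and were profiled by ATAC-seq, which marks open DNA by the insertions of the transposase Tn5. From their name, they carry Hoxa9 fused to an estrogen receptor (ER) and GFP under lysozyme control, and every group shares both. Background knowledge of such fusions holds that estradiol (E2) keeps the fusion active, and that its removal lets immature myeloid cells mature. The 10 groups were cells with E2 (0 h) and cells at 4, 8, 12, 24, 36, 48, 72, 96 and 120 h after E2 was washed out, with 2 samples each. Per the labels, the nuclei of a preparation went into paired reactions with Tn5, so replicates may be technical ones. Each group had 1 peak list for both samples, which leaves replicate spread unknown, and the text gives no p-value. Intervals are exact 95% binomial (Clopper-Pearson) intervals and cover counting error only.

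MEIS, PBX and PKNOX proteins belong to the TALE class of homeodomain proteins, named for a short loop insertion in the DNA-binding domain. MEIS and PKNOX proteins bind PBX proteins through their N-terminal parts, and PBX proteins in turn bind DNA together with HOX proteins, which sharpens the choice of site. In blood, Meis1 is active in stem and progenitor cells and is switched down as myeloid cells mature. In mouse models it acts with Hoxa9 in myeloid leukaemia, and Pbx3 is a partner of both.

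The DNA before the start sites of Meis1, Pbx2, Meis3 and Meis2 is shown because RefSeq's promoter table, as used here, held these 4 of the 6 genes. The listing of their windows ranged from all 10 lists to none. The windows of Meis1 and Pbx2 were overlapped by a peak in all 10 lists, that of Meis3 in 1 list and that of Meis2 in 0 lists. Each is the 250 bases before the start site that the table for GRCm38.p6, the same sequence as mm10, gives, read 5′ to 3′ on the gene's strand. The RefSeq spans of Meis1, Meis2 and Meis3 begin farther upstream, so these 3 windows lie inside the gene, before the start of one of its transcripts. Capitals mark matches, on either strand, to 7 short motifs searched for: TGACAG (Meis and Tgif core), TGATTNAT (Pbx-Hox), CCGGAAGT (ETS), TGTGGT (Runx), TTGCNNAA (C/EBP), GGGCGG (Sp and Klf) and CCAAT (NF-Y).
Meis1 (chr11:19018970-19019219, minus strand): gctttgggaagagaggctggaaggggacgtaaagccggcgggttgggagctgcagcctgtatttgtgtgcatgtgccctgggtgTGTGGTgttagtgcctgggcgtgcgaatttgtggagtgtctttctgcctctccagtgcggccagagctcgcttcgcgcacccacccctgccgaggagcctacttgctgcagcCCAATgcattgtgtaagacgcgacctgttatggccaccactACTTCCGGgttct
Pbx2 (chr17:34592009-34592258, plus strand): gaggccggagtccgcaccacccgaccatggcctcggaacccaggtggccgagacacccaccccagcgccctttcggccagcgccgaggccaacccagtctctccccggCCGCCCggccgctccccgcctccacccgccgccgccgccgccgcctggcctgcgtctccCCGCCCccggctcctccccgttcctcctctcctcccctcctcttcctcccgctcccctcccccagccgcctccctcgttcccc
Meis3 (chr7:16175145-16175394, plus strand): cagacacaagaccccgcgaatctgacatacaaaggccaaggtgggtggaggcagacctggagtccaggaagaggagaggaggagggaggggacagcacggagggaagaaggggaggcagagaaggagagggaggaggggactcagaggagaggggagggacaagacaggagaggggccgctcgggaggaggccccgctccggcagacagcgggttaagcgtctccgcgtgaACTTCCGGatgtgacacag
Meis2 (chr2:116064620-116064869, minus strand): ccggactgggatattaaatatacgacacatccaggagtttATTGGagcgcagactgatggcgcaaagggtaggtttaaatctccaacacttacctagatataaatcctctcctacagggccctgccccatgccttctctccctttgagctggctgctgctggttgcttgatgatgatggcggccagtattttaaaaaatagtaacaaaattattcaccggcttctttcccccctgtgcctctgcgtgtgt

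The 4 windows differed in base composition. G and C made up 77.6% of the Pbx2 window, 63.6% of the Meis3 window, 59.6% of the Meis1 window and 47.6% of the Meis2 window, against a median of 52.4% over the 32851 promoters of the table. The Pbx2 window held 27 CpG pairs, the Meis3 window 12, the Meis1 window 13 and the Meis2 window 7, against a median of 6. The ETS motif CCGGAAGT had 1 match in the Meis1 window, beginning at base 238, and 1 in the Meis3 window at base 232. It had a match in 2.88% of all promoters. GGGCGG matched at 2 places in the Pbx2 window and had a match in 32.7% of all promoters. CCAAT matched once in the Meis1 and once in the Meis2 window (33.9% of all promoters), and TGTGGT once in the Meis1 window (14.1%). The Meis core TGACAG, the Pbx-Hox motif TGATTNAT and the C/EBP motif TTGCNNAA had 0 matches in the 4 windows and had one in 15.9%, 2.83% and 9.56% of all promoters. These matches describe the letters only. The motifs were chosen after the sequences had been seen, so the shares over all promoters do not test enrichment. The start site that the deposited distances imply lies within 1 bp of the end of the window for Meis1, Meis2 and Meis3, and farther downstream, at 34592471, for Pbx2.

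The first question was how many accessible sites each partner gene kept as E2 was withdrawn. The 0 h list held 23 peaks of the 6 genes, the 4 h list 22, the 8 h list 25, the 12 h list 23 and the 24 h list 20. The 36 h and 48 h lists held 21 each, the 72 h list 13, and the 96 h and 120 h lists 11 each. The loss was in Meis1 and Meis3, whereas Pbx2, Pbx3 and Pknox1 had as many peaks at 120 h as at 0 h and Meis2 had 1 more. Thus 2 of 6 genes had fewer peaks at 120 h, and over all genes with a peak at either time 71.4% had fewer. 3 of 6 had as many (20.8% of all genes) and 1 of 6 had more (7.82%). The median difference, 120 h minus 0 h, was 0 peaks over the 6 genes and -1 over all genes.

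The lists themselves became shorter: 23620 peaks were listed at 120 h against 55261 at 0 h, or 42.7%, and for the 6 genes the number at 120 h was 47.8% of that at 0 h. The summed log2 ratio of 120 h to 0 h was -1.03 with 0.5 added to each sum, with an interval of -2.25 to 0.03. That interval treats the 2 sums as independent counts, although they largely share sites. Of the 11 peaks at 120 h, 1 lacked a 0 h counterpart (9.09%, against 25.0% of all 120 h peaks, a difference not tested). Of the 23 peaks at 0 h, 10 were overlapped at 120 h (43.5%, against 32.6% of all 0 h peaks). The interval therefore does not measure the change at shared sites. Per 10000 listed peaks the 6 genes held 4.66 at 120 h and 4.16 at 0 h, so the direction of the sum depended on the scale. That of Meis1 did not, with 1.69 at 120 h and 2.35 at 0 h per 10000 listed peaks. The number of reads per sample is unknown, because the lists hold no read counts, and its part in these totals was not tested. A site missing from a list of bulk cells may be open in fewer cells or less open in each, and the lists cannot tell these apart.

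**Figure D1:**
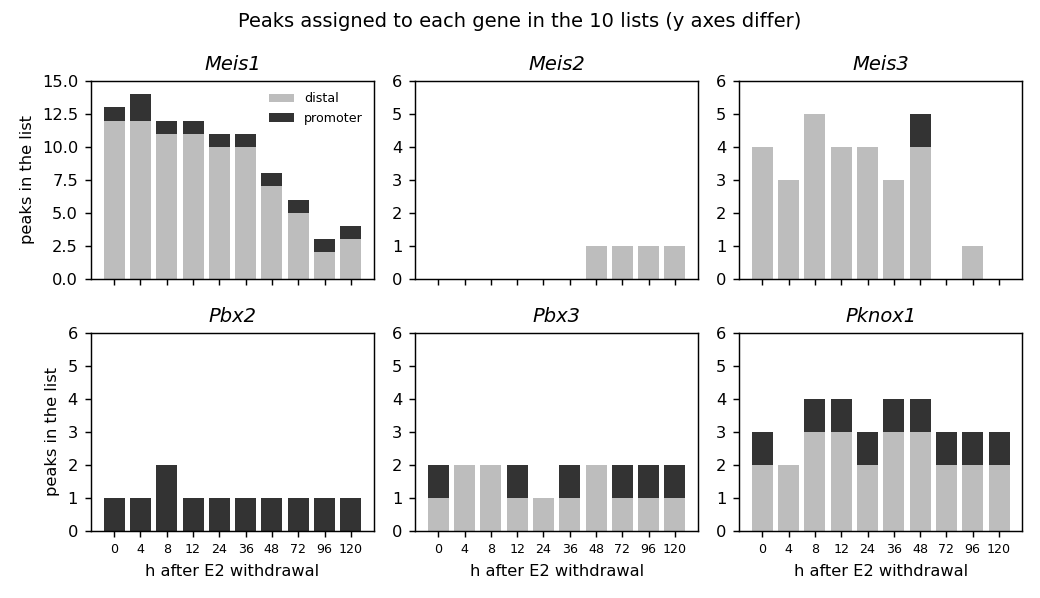
Number of peaks assigned to each of the 6 genes (y axis) in the lists of 0 to 120 h after E2 withdrawal (x axis); grey marks distal peaks and black marks promoter peaks, at most 1000 bp from the TSS. Meis1 had 4 peaks at 120 h and 13 at 0 h, Meis2 had its only peak from 48 h on, and Pbx2, Pbx3 and Pknox1 ended with the number they began with.

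Promoter peaks, at most 1000 bp from the TSS, numbered 4 in the lists of 0, 8, 12, 36, 48, 72, 96 and 120 h, and 3 at 4 and 24 h. Distal peaks numbered 19 in the lists of 0, 4 and 12 h and 21 in that of 8 h. They numbered 17 in those of 24, 36 and 48 h, 9 in that of 72 h and 7 in those of 96 and 120 h. The lower totals after 48 h were therefore made up of distal peaks. The whole lists shifted in the same direction: promoter peaks made up 18.7% of all peaks at 48 h and 38.0% at 120 h. The shift was thus not particular to the 6 genes. Just inside the 1000 bp limit lay the Meis1 peak at -905 bp in the 4 h list and the Pbx2 peak at -825 bp in the 8 h list. Just outside it lay the Meis1 peaks at -1503 bp at 4 h and -1504 bp at 0 and 8 h, so the choice of limit decides whether this Meis1 site counts as a promoter.

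The next question was which of the sites listed with E2 were still listed later. All 4 promoter peaks of 0 h were overlapped at 120 h (100%, interval 39.8 to 100%), against 75.0% of all promoter peaks. Of the 19 distal peaks of 0 h, 6 were overlapped at 120 h (31.6%, interval 12.6 to 56.6%), against 22.5% of all distal peaks. Over both kinds, 10 of 23 were overlapped (43.5%, interval 23.2 to 65.5%), against 32.6% of all 0 h peaks. The intervals of all 3 shares include the value over all genes, so no difference from other genes was detectable with so few peaks. Meis1 held 12 of the 19 distal peaks. Of these 12, the 24 h list overlapped 9, the 48 h list 6, the 72 h list 5, the 96 h list 2 and the 120 h list 3. Over all genes the share of distal 0 h peaks overlapped was 79.0% at 24 h, 70.5% at 48 h and 54.3% at 72 h. It was 30.6% at 96 h and 22.5% at 120 h. The exact 95% interval of the Meis1 share included the value over all genes at each of these times.

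**Figure D2:**
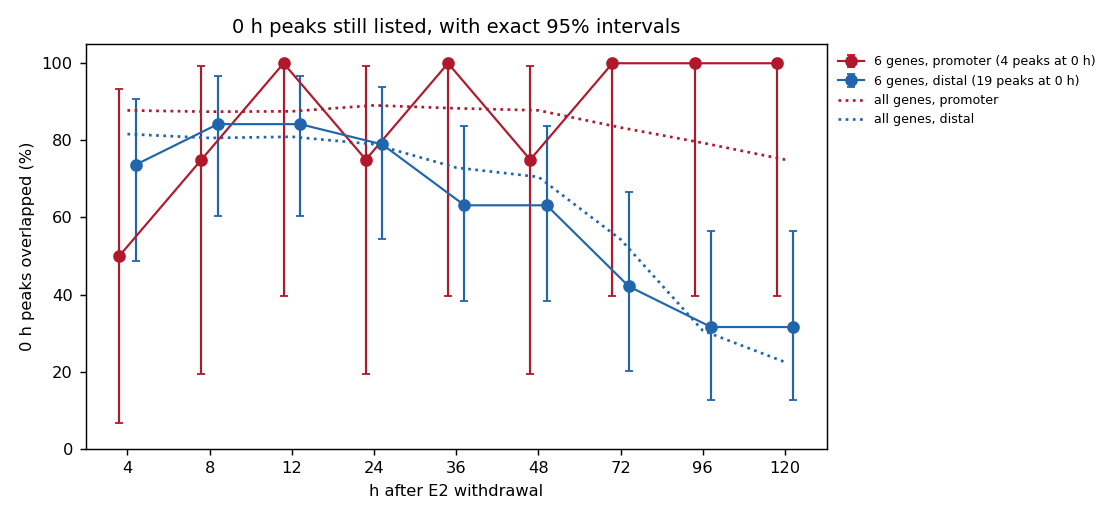
Share of 0 h peaks overlapped by at least 1 bp in each later list (y axis, percent) against hours after E2 withdrawal (x axis), for the 6 genes (points with exact 95% intervals) and for all genes (dotted lines). The distal share of the 6 genes was 84.2% at 12 h, 42.1% at 72 h and 31.6% at 120 h. Over all genes it was 80.9%, 54.3% and 22.5%, and the wide intervals of the 6 genes include these values.

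Meis1 (chr11:18880428-19019651 in the RefSeq table, minus strand), the progenitor gene that partners Hoxa9, had 13 peaks in the 0 h list and 14 in the 4 h list. The 8 h and 12 h lists held 12 each, the 24 h and 36 h lists 11 each, the 48 h list 8, the 72 h list 6, the 96 h list 3 and the 120 h list 4. Its number was lower in every list from 48 h on than in any list before. Of the 19738 genes, 1.76% had 13 or more peaks at 0 h. Among the 414 genes with 11 to 15 peaks at 0 h, the median at 120 h was 4 peaks, with quartiles of 3 and 6. The 4 peaks of Meis1 at 120 h were thus at the middle of genes that began with a like number.

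The peaks of Meis1 fell into 16 regions, of which 11 lay inside the gene, 3 beyond its 3′ end and 2 before its start. Regions were called lost when they were in each of the 0, 4 and 8 h lists but in none from 72 h on, gained when the reverse held, and constant when they were in all 10 lists. Among the 16 regions, 3 were constant, 3 were lost, 0 were gained, and 10 followed another course. The constant regions were the promoter (chr11:19018555-19019306), a site 1.57 kb upstream of the TSS on a CpG-rich stretch (chr11:19020298-19020740), and a site in intron 8 of 11, 94.0 kb into the gene (chr11:18924620-18925404). The intronic site was 618 bp wide at 120 h and 785 bp at 0 h.

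The lost regions of Meis1 were listed for different lengths of time. The one farthest from the promoter, 265 kb downstream of the TSS and beyond the gene's 3′ end (chr11:18753739-18754296), was listed from 0 to 48 h. It lies within Gm31674, a long noncoding RNA gene in the RefSeq table. The one in intron 7 of 11 at 69.8 kb (chr11:18948642-18949652) was also listed from 0 to 48 h. Its width was 749 bp in the 0 h list, 1011 bp in the 4 h list and 621 bp in the 48 h list. The one in intron 8 at 77.7 kb (chr11:18940939-18941639) was last listed at 36 h.

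Further distal sites of Meis1 disappeared late without meeting that definition. A site 141 kb from the TSS (chr11:18877496-18878375), just beyond the 3′ end of Meis1 and overlapping the end of the noncoding RNA gene 8430419K02Rik, was listed from 0 to 72 h. Its width was between 841 and 863 bp in those 8 lists, and it was in neither of the 96 and 120 h lists. A site in the last intron at 135 kb (chr11:18883504-18884410) was listed from 4 to 48 h, and in the lists of 4 and 36 h it held 2 separate peaks. A site in intron 7 at 48.8 kb (chr11:18969803-18970487) was listed in every list but that of 96 h. Narrower sites came and went: the 3 regions at 75.9, 133 and 197 kb were last listed at 12, 12 and 24 h. Of the 2 regions in intron 6, at 22.5 and 22.0 kb, the first was listed at 0 h only and carries a B3 SINE repeat, and the second at 4 and 8 h only. Both lie within Gm16141, a noncoding RNA gene inside Meis1.

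**Figure D3:**
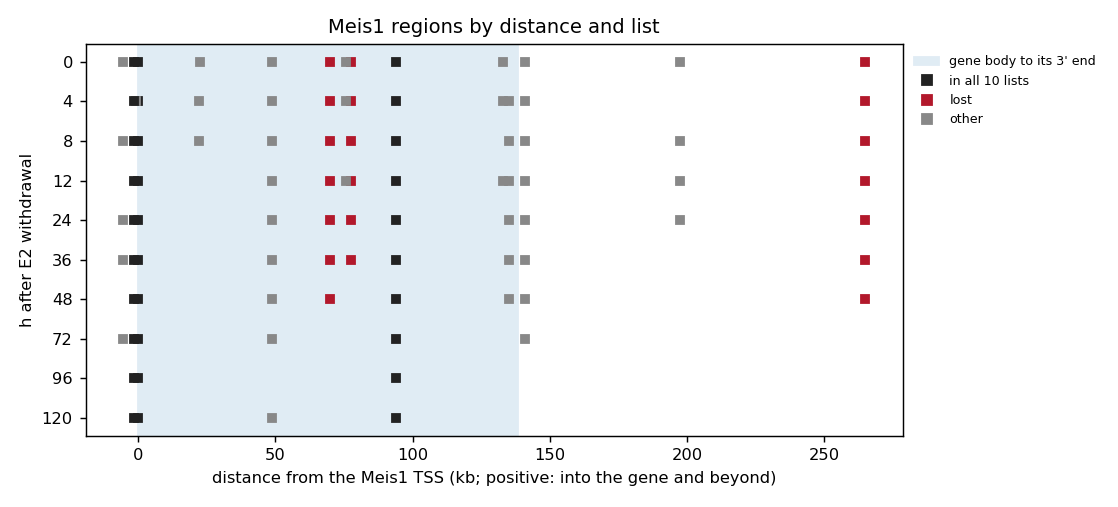
The 16 Meis1 regions by distance from the TSS in kb (x axis) in each list (y axis, h after E2 withdrawal); a square means that the region held a peak, black squares are constant, red squares lost and grey squares other regions, and the shaded span runs from the TSS to the gene's 3′ end. At 96 h the promoter, the site 1.57 kb upstream and the site at 94.0 kb remained, and at 120 h the site at 48.8 kb was listed again.

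Meis2 (chr2:115861264-116067537), a paralogue of Meis1 best known from the developing limb and nervous system, had 0 peaks in the lists of 0 to 36 h and 1 peak in each of the lists of 48, 72, 96 and 120 h. It was the only one of the 6 genes with a gained region. That region (chr2:115889949-115890392) lies in intron 9 of 12, 174 kb from the TSS, on a MIRb repeat, a member of an old family of short interspersed elements. Its peak was 292 bp wide in the 48 h list, 421 bp in the 72 h list, 258 bp in the 96 h list and 434 bp in the 120 h list. No list held a peak within 1000 bp of the Meis2 start site that the deposited distances use.

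Meis3 (chr7:16174012-16186510), the paralogue known from neural and gut nervous system development, had 4 peaks in the 0 h list, 3 in the 4 h list and 5 in the 8 h list. The 12 h and 24 h lists held 4 each, the 36 h list 3, the 48 h list 5, the 72 h list 0, the 96 h list 1 and the 120 h list 0. All lists up to 48 h thus held 3 or more peaks and all later ones 1 or fewer. Among the 9583 genes with 2 to 6 peaks at 0 h, the median at 120 h was 1 peak, with quartiles of 0 and 2. Of these genes, 27.5% had 0 peaks at 120 h, as Meis3 had. Of its 6 regions, 2 were lost, and 1 was transient, meaning in none of the 0, 4, 96 and 120 h lists but in at least 2 consecutive ones between. The lost regions (chr7:16153478-16153901 and chr7:16156401-16156703) and the transient one (chr7:16160581-16161087) lie at Slc8a2, a neighbouring sodium-calcium exchanger gene, 21.7, 18.8 and 14.6 kb before the Meis3 TSS. They belong to Meis3 by the nearest start site only. The region 17.1 kb after the Meis3 TSS (chr7:16192294-16192746) was listed from 0 to 48 h and at 96 h. The Meis3 promoter (chr7:16175139-16175711) was listed in the 48 h list alone, as a peak of 573 bp, and the region in exon 9 of 13 (chr7:16183602-16184017) was in 5 lists and last in that of 48 h.

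Pbx2 (chr17:34592259-34597400), a broadly expressed partner of HOX and MEIS proteins, had 1 peak in every list but that of 8 h, which had 2. All were promoter peaks, and no distal region was assigned to this short gene. The constant promoter region (chr17:34591818-34592696) had a peak of 465 bp in the 0 h list, 361 bp in the 4 h list, 507 bp in the 8 h list, 365 bp in the 12 h list and 451 bp in the 24 h list. The 36 h list gave 367 bp, the 48 h list 342 bp, the 72 h list 556 bp, the 96 h list 879 bp and the 120 h list 826 bp. The 3 latest lists held the 3 widest peaks. The width at 120 h was 1.78 times that at 0 h. Over the 5276 promoter regions in all 10 lists the median ratio was 0.95, and 2.24% had a ratio at least as high as Pbx2. The Meis1 promoter, with 528 bp in the 120 h list and 676 bp in the 0 h list, gave a ratio of 0.78. The width of a peak depends on the peak caller and on read depth as well as on the open site, and their part was not tested.

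Pbx3 (chr2:34171457-34372045, minus strand), the PBX gene most often named beside Meis1 in leukaemia, had 2 peaks in every list but that of 24 h, which had 1. Its peaks were not the same ones throughout. The promoter region (chr2:34371664-34373238) was listed at 0, 12, 36, 72, 96 and 120 h and absent at 4, 8, 24 and 48 h. Its width was 808 bp in the 0 h list, 1575 bp in the 12 h list, 785 bp in the 36 h list, 1451 bp in the 72 h list, 1127 bp in the 96 h list and 1279 bp in the 120 h list. The peaks of 0 and 36 h lay wholly upstream of the start site that the deposited distances imply (34372045). Those of 12, 72, 96 and 120 h spanned it. An intronic site 11.9 kb into the gene (chr2:34359644-34360775, intron 2 of 7) was listed at all times but 36 h. It was narrower late, with 419 bp in the 96 h list and 262 bp in the 120 h list, against 660 to 1073 bp in the 7 earlier lists that held it. A second site in the same intron at 122 kb (chr2:34249480-34249963) was listed at 4, 8, 36 and 48 h.

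Pknox1 (chr17:31564722-31607693), whose protein Prep1 binds PBX proteins in competition with MEIS proteins, had 3 peaks in the 0 h list, 2 in the 4 h list, 4 each in the 8 h and 12 h lists and 3 in the 24 h list. The 36 h and 48 h lists held 4 each and the lists of 72, 96 and 120 h held 3 each. Its promoter region (chr17:31564080-31565379) was among the widest of the 6 genes, at 1210 to 1293 bp in 9 lists, and was absent from the 4 h list. A site 6.49 kb upstream of the TSS (chr17:31557939-31558635) was likewise absent at 4 h only. The site in intron 6, 30.1 kb from the TSS (chr17:31594425-31595284), was constant. The remaining regions were a site on an RLTR17 element 5.67 kb upstream, listed at 4, 8, 36 and 48 h, and a site on a B1 element in intron 1, listed at 12 h.

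**Figure D4:**
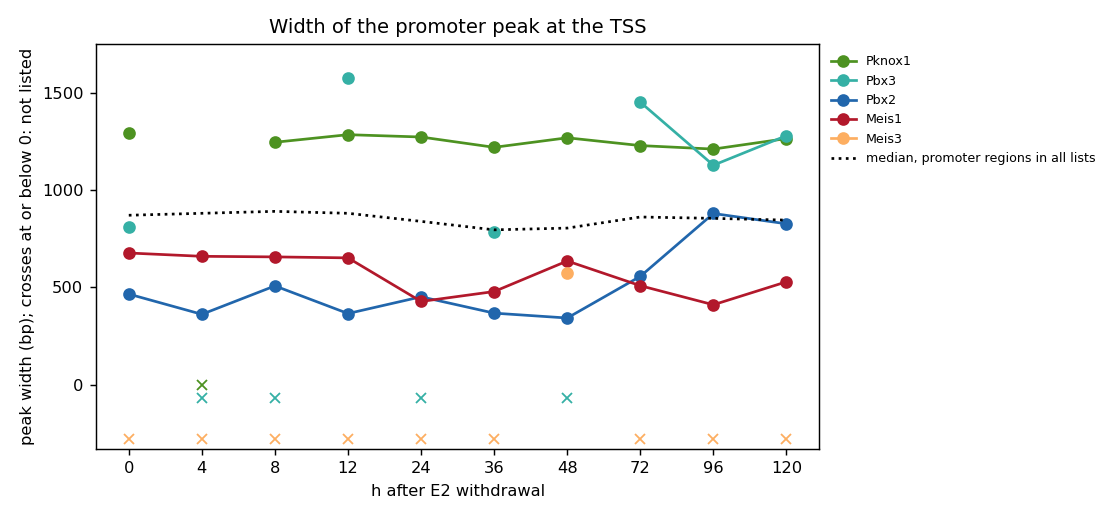
Width (bp, y axis) of the promoter peak nearest the TSS of Pknox1, Pbx3, Pbx2, Meis1 and Meis3 by hours after E2 withdrawal (x axis). Crosses mark lists without that peak, and the dotted line is the median over the 5276 promoter regions in all 10 lists. The Pbx3 peaks of 0 and 36 h lie upstream of the TSS and do not cover it. The Pbx2 peak measured 879 bp at 96 h and 826 bp at 120 h against 342 to 556 bp before, and the Pbx3 promoter is missing from 4 lists.

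The 33 regions were then counted by class beside the share over all regions. Of the 33, 5 were lost (15.2%), against 12.5% of all regions. A further 5 were constant (15.2%, against 13.8%), 1 was gained (3.03%, against 2.38%) and 1 was transient (3.03%, against 9.65%). Of the 7 promoter regions of the 6 genes, 2 were constant, those of Meis1 and Pbx2, against 41.3% of all promoter regions. Of the 26 distal regions, 3 were constant, against 9.13% of all distal regions, and 5 were lost, against 14.0%. A promoter peak was listed for 5 of 6 genes in at least 1 list, against 60.3% of all genes. Of these 5 genes, 2 had one in all 10 lists, against 42.0%. All 4 genes with a promoter peak at 0 h (Meis1, Pbx2, Pbx3 and Pknox1) had one at 120 h, against 77.2%.

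Several regions were listed at both ends of the course and absent between. Of the 10 regions in both the 120 h and the 0 h list, 5 were absent from at least 1 list between, against 30.9% of all such regions. They were the Meis1 site at 48.8 kb, the intronic site and the promoter of Pbx3, and the promoter and the upstream site of Pknox1. Over the genome 7137 regions were in exactly 9 lists. Of these, 609 were missing from the 4 h list alone, as both Pknox1 regions were, and 238 of those were promoter regions. For the other lists between 0 h and 120 h, the number ranged from 204 at 24 h to 659 at 96 h. With 1 list for each time, such gaps cannot be told apart from sites that a list missed.

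**Figure D5:**
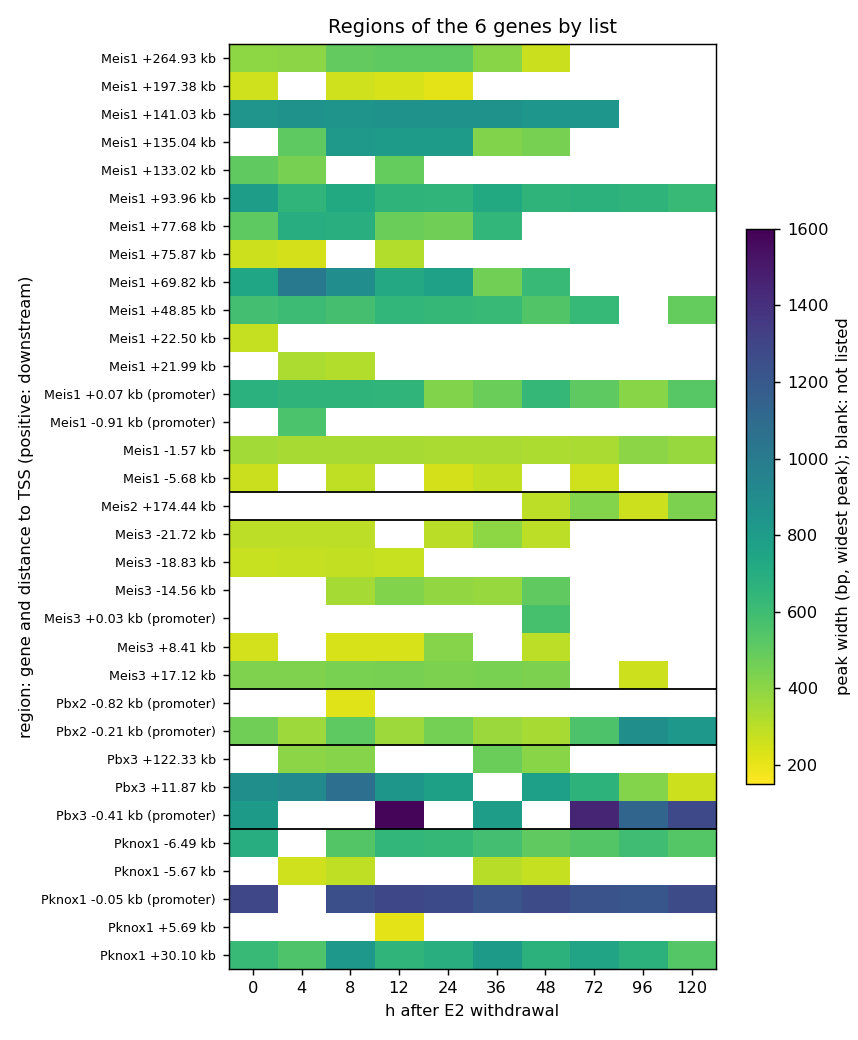
The 33 regions (y axis, by gene and distance to the TSS in kb) in each list (x axis, h after E2 withdrawal); colour gives the width in bp of the widest peak in that list and blank cells were not listed. The blank area at the upper right is the late disappearance of distal Meis1 sites, the Meis2 row begins at 48 h, and the Pbx3 and Pknox1 promoter rows have gaps and are filled from 72 h on.

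Genes whose profile was most like a member's were sought among 5682 genes with at least 5 peaks in a list, by the correlation of peaks per 10000 listed peaks over the 10 lists. For Meis1 these were Slc4a3, an anion exchanger gene, with r = 0.943, Asb1 with r = 0.936 and 4933407G14Rik with r = 0.931. Slc4a3 had 5 peaks at 0 h, 2 at 48 h and 1 at 120 h. For Meis3 they were Ccnd1, which encodes cyclin D1, with r = 0.945, Trmu with r = 0.942 and Bcl7a with r = 0.937. Ccnd1 had 6 peaks in the 0 h list, 8 in the 48 h list, 3 in the 72 h list and 1 in the 120 h list. All profiles share the same 10 lists, and r is given as a description.

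Most other genes of the pathway that had peaks had fewer of them at 120 h. Of 12 further TALE genes (Pbx, Pknox, Tgif, Mkx and Irx paralogues), 10 had a peak at 0 h or 120 h. Of these 10, 9 had fewer at 120 h, 1 had as many and 0 had more, with 8 peaks at 120 h and 35 at 0 h in all. The largest difference was that of Tgif1, a repressor of TGF-beta signalling, with 3 peaks at 120 h and 15 at 0 h, of which 0 at 120 h and 6 at 0 h were promoter peaks. The smallest was that of Mkx, a tendon factor, with 2 peaks at both times. Of a list of 22 genes, made of HOX genes of the A and B clusters and the PBX-binding gene Pbxip1, 5 had a peak at either time and all 5 had fewer at 120 h. Pbxip1 had 1 peak at 120 h and 2 at 0 h, and no peak was assigned to Hoxa9 itself. Of 20 genes known as Meis1 or Hoxa9 targets, 19 had a peak at either time and all 19 had fewer at 120 h, with 74 peaks at 120 h and 207 at 0 h. Foxp1, a forkhead factor, had 10 at 120 h and 30 at 0 h. Lmo2, a blood stem cell cofactor, had 5 at 120 h and 6 at 0 h, and the kinase gene Syk 6 at 120 h and 7 at 0 h. Counts of 9 of 10, 5 of 5 and 19 of 19 stand beside 71.4% of all genes. That share is over genes with any number of peaks at 0 h. Among the 414 genes with 11 to 15 peaks at 0 h, the upper quartile at 120 h was 6 peaks. Whether these lists differ from genes with like numbers of peaks was not tested. Without Tgif1 the further TALE genes had 5 peaks at 120 h and 20 at 0 h.

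Peaks of marker genes are set beside the lists as a whole, in which the number of peaks at 120 h was 42.7% of that at 0 h and 71.4% of genes had fewer. Over all genes, 12550 had a peak at 120 h and 17379 at 0 h, and 8596 had a promoter peak at 120 h and 9525 at 0 h. Immature myeloid markers, 8 genes, had 15 peaks in the 120 h list and 43 in the 0 h list, or 34.9%, and all 8 had fewer at 120 h. A peak was listed for 6 of 8 genes at 120 h and 8 of 8 at 0 h, and a promoter peak for 4 of 8 at 120 h and 5 of 8 at 0 h. Elane and Prtn3, granule protease genes of promyelocytes, were the ones without a peak at 120 h. Neutrophil markers, 9 genes, had 26 peaks in the 120 h list and 24 in the 0 h list, and promoter peaks at 8 of 9 genes at 120 h against 5 of 9 at 0 h. Of the 9, 5 had more peaks at 120 h and 4 had fewer. Ltf, the lactoferrin gene, had 4 peaks in the 120 h list and 0 in the 0 h list. Without it the sum was 22 at 120 h and 24 at 0 h. Cebpe, a factor of granulocyte maturation, had 2 at 120 h and 5 at 0 h, and Mmp8, a neutrophil collagenase gene, 1 at 120 h and 3 at 0 h. Lyz2 and Csf3r each had 1 fewer at 120 h. Markers of other cells also had assigned peaks: B cell genes had 2 at 120 h and 10 at 0 h, and T cell genes 1 at 120 h and 9 at 0 h. Each of these sums came mostly from 1 gene at 0 h. Without Ebf1 the B cell sum was 0 at 120 h and 3 at 0 h, and without Tcf7 the T cell sum was 1 at 120 h and 2 at 0 h. Erythroid genes had 2 at 120 h and 4 at 0 h, macrophage genes 7 at 120 h and 14 at 0 h, and non-blood genes 4 at 120 h and 10 at 0 h. At 120 h a promoter peak was listed for 1 of 4 B cell, 0 of 4 T cell, 0 of 3 erythroid, 2 of 3 macrophage and 1 of 5 non-blood genes. With E2 it was listed for 2 of 4 B cell, 1 of 4 T cell, 1 of 3 erythroid, 1 of 3 macrophage and 1 of 5 non-blood genes. Cd3e, a defining T cell gene, had 1 peak in each of the lists of 4, 8, 36 and 72 h and 0 in the others. Alb, the liver albumin gene, had 1 in each of the lists of 8, 12, 24, 36 and 48 h and 0 in the others. Tcf7, a T cell factor, had 0 at 120 h and 7 at 0 h, and Cdh1, which encodes E-cadherin, 2 at 120 h and 4 at 0 h. The part of other cells in the results above was not tested.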

How the data were processed

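ATAC-seq was carried out on 20 samples, 2 per time point. The authors deposited 1 annotated peak list per time point, with positions and distances in bp. The deposited peak score is 0 for all 504887 peaks and ranks nothing. Per the file headers, HOMER annotated the peaks against mm10. The submitters' processing notes give mm9 as the build, and name BWA, MACS2 2.0 and STAR 2.5 without a role. Pooling, Tn5 shift and peak threshold are not given in the sources used here. Coordinates are mm10 and count from 1.

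Peaks overlapping by 1 bp or more were chained into regions, and each region took the gene and annotation of its widest peak. No region held peaks of more than 1 gene among those of the members. Members, gene lists and class definitions were chosen with earlier results of these data known. The named genes were the members, the 3 most similar genes of members with at least 5 peaks in a list, and the extremes of each list. Where several tied, or a gene had no peak, some were chosen after their values were seen. The promoter motifs were chosen after the sequences had been seen. The joining of peaks into regions, the classes and the overlap between lists were checked on simulated data with well-separated sites. The other steps were not checked in this way. Tools were Python 3.11.15 with pandas 2.3.3, numpy 2.4.6, matplotlib 3.10.9 and scipy 1.17.1.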

Additional observations from a re-analysis of the deposited data

How the results depend on the processing

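Of 45 values recomputed under the alternatives, 35 stayed within their interval or within 1.5 times the count. Cutting every list to its 23620 widest peaks gave the 6 genes 11 peaks at 120 h and 10 at 0 h. The log2 ratio was then 0.13, the genes with fewer peaks 1, the share of 0 h peaks overlapped at 120 h 80.0%, the distal share 71.4%, and lost and constant regions 1 and 2. This cut favours wide peaks: Meis3 had 0 left at either time, and Meis1 had 4 at 120 h and 5 at 0 h. Per 10000 listed peaks the log2 ratio was 0.20. Taking peaks within 10 kb of the gene, in place of the nearest start site, gave 2 lost, 2 gained and 0 transient regions. That window leaves out the far Meis1 sites and the sites at Slc8a2 and takes in neighbours of Pbx2. Using the 96 h or 4 h list, 50% overlap, other promoter distances or no 120 h list moved no value beyond these limits. For the promoter share the limits were wide, at 39.8 to 100%, so staying within them says little. Starting from the 4 h list, that share was 66.7% (2 of 3 peaks) in place of 100% (4 of 4). No paired analysis was possible because each list belongs to both replicates, and no replicate could be left out for the same reason.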

Other observations

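Around Pbx2, regions assigned to its neighbours were looked at after the values were seen. A promoter region of Gpsm3, the gene just before Pbx2, lay 114 bp from its TSS (chr17:34589694-34590142). It was in none of the lists of 0 to 48 h and in those of 72, 96 and 120 h, the same lists that held the widest Pbx2 promoter peaks. Another Gpsm3 region (chr17:34587072-34587940) and a promoter region of Rnf5 (chr17:34603341-34604554) were in all 10 lists. A promoter region of Agpat1 (chr17:34605681-34605955) was in 9 lists, all but that of 0 h, and one of Ager (chr17:34597462-34597737) was in the 36 h list alone. Inside or within 10 kb of the other 5 genes, every region was assigned to the member itself.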
